A study of Homo sapiens with 7 samples.

Results

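The loci described here are the genes of the MYC, MAX and MXD network: MYC, MYCL, MAX, MNT, MXI1, MXD1, MXD3, MXD4, MGA and MLX. MYCN binding at them was read from a list of ChIP-seq summits, a summit being the position of locally highest signal within an enriched interval. A summit belonged to a locus when it lay in a fixed hg19 window that holds the gene and about 10 kb on each side. The 10 windows cover 575 kb and held 58 of the 64657 summits of the list, in 35 of its 47765 intervals.

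The material was Kelly, an established human neuroblastoma line with amplified MYCN and an activating ALK mutation. In the series, MYCN ChIP was performed on 2 samples of TAE684-sensitive Kelly cells given DMSO for 48 h and on 2 samples of TAE684-resistant Kelly cells given the ALK inhibitor TAE684 at 1 µM for 48 h. Sheared chromatin without immunoprecipitation (input) came from 1 sensitive and 2 resistant samples. Both ChIP samples of a state share 1 peak list, which leaves the values without a replicate error, and no test across samples could be made. All 58 rows of these loci, like all 64657 rows, were identical in the sensitive and the resistant list. All 64657 peak names of the resistant list carried the name of the sensitive one. The values therefore refer to the sensitive, DMSO-treated cells, and no comparison between the states was made. Peak lists hold no expression values, so neither the identity of the cells nor the expression of these genes was examined.

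MYC, MYCN and MYCL are basic helix-loop-helix leucine zipper proteins that activate transcription as heterodimers with MAX. They bind E-boxes, of which CACGTG is the canonical form. The MXD proteins, MXI1, MNT and MGA also pair with MAX and occupy the same kind of site. Of these, the MXD proteins, MXI1 and MNT recruit SIN3 corepressors and oppose MYC at shared targets. MLX is a MAX-like protein that pairs with the glucose-sensing Mondo factors and with some of the MXD proteins and MNT. In neuroblastoma with amplified MYCN, MYC itself is usually expressed at a low level.

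These sequences show what the E-box search found at these genes: the 3 members whose promoter holds CACGTG, and MXD1, which holds the wider motif but not CACGTG. Each is the 250 bases before the outermost listed transcription start, read 5′ to 3′ on the gene's strand, from RefSeq on GRCh38.p14. In MNT, MXD4 and MLX the capitals mark CACGTG. In MXD1 they mark the wider motif CANNTG, which includes CACGTG. The positions are chr17:2401061-2401310 on the minus strand for MNT, chr4:2262110-2262359 on the minus strand for MXD4, chr17:42566850-42567099 on the plus strand for MLX and chr2:69914859-69915108 on the plus strand for MXD1. These are GRCh38 positions and cannot be laid over the hg19 summits.
MNT: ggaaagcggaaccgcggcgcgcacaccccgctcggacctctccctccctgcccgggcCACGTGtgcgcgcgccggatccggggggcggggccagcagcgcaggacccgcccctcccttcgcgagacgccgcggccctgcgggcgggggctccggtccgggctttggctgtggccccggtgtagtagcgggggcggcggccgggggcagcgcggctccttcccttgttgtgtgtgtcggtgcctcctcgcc
MXD4: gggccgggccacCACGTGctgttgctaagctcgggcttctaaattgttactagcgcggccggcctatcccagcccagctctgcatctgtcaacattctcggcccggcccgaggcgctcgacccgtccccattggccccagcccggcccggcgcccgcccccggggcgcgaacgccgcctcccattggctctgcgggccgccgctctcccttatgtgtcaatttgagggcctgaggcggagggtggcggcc
MLX: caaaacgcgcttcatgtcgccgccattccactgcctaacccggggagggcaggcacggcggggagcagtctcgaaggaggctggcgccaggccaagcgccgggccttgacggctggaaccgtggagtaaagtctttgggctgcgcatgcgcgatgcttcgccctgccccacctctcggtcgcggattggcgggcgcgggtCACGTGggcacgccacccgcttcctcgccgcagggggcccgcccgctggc
MXD1: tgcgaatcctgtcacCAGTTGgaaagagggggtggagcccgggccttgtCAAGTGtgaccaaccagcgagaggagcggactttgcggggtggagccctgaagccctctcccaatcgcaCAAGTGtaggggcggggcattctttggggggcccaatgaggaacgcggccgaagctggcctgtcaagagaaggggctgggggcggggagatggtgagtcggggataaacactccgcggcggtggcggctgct

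CACGTG began 193 bases before the start of MNT, 238 before that of MXD4 and 50 before that of MLX. Both motifs are palindromic, so a search of 1 strand covers both. The table held 14 promoters for 9 of the 10 members, each running from 250 bases before to 50 after a start, and MYC had no entry. CACGTG was found in 3 of these 14 promoters, belonging to 3 of the 9 genes, and in 7.26% of all 35116 promoters. CANNTG was found in 9 of the 14 promoters, belonging to 8 of the 9 genes, and in 68.7% of all promoters. A gene was counted if any of its listed starts had a match. Within the 250 bases before a start, MXI1 and MGA had CANNTG at their outermost start alone. The members' promoters had a median GC content of 66.6%, beside 58.0% over all promoters, and its part in the number of matches was not tested. The gene without CANNTG was MAX. Its listed starts lie inside the annotated gene, so the searched windows did not reach its outermost end. A match is a description of the letters, and whether MYCN was bound there was not tested.

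MYCN summits lay at the 5′ end of all 10 genes. No hg19 annotation was used, so the 5′ end was placed from the window itself, 10 kb inside its edge on the gene's start side, which fixes it to a stretch of 1 kb. Within that stretch or 2 kb to either side lay 31 of the 58 summits (53.4%), although these 5′ ends make up 50 kb, or 8.7%, of the windows. A further 18 summits lay in gene bodies, 8 in the downstream flanks and 1 in an upstream flank. The windows held 101 summits per Mb, against 21.3 per Mb over chromosomes 1 to 22 and X up to the last peak. That figure includes gene-free sequence, and the same count around the starts of other genes was not made. Whether the summits fall in exons, introns or UTRs was not determined.

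**Figure D1:**
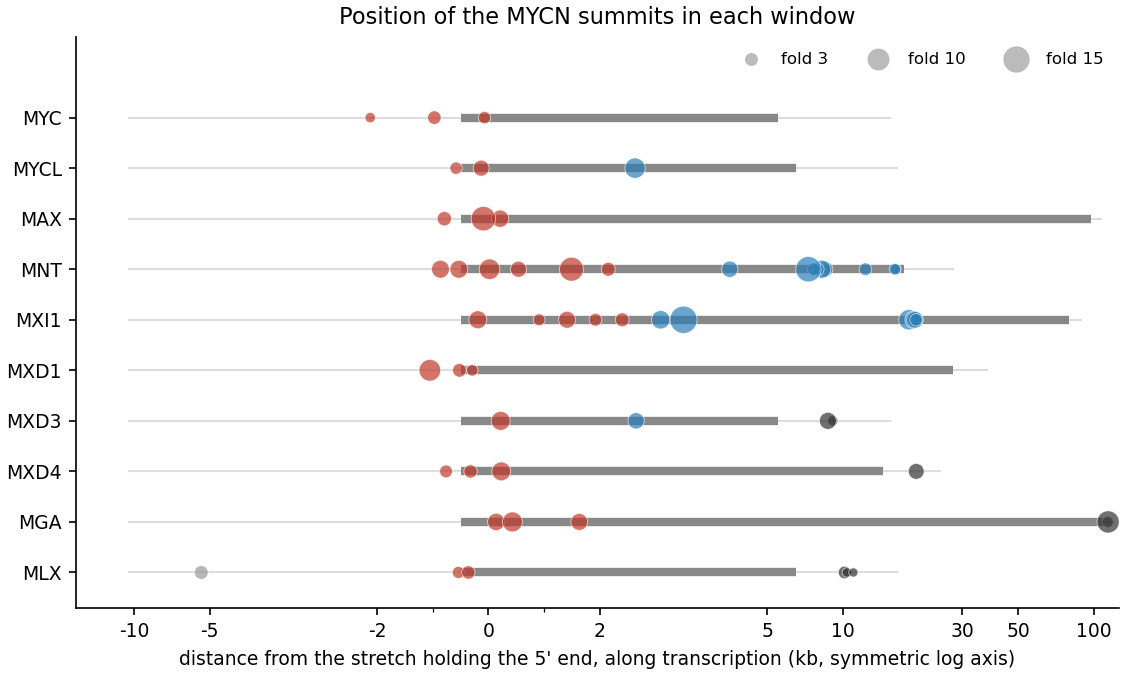
Position of the 58 MYCN summits along each gene window, as distance in kb from the middle of the 1-kb stretch that holds the 5′ end (symmetric log axis), with positive values in the direction of transcription. Thick bars are genes, thin lines the flanks, circle area is proportional to fold enrichment, and red, blue, light grey and black mark the 5′ end, gene body, upstream flank and downstream flank. All 10 genes have red circles, while blue circles are seen at MYCL, MNT, MXI1 and MXD3.

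The authors' fold enrichment is the ratio of ChIP pileup, scaled by 0.641, to local background at the summit. A small constant is added to both. The background is a local estimate in units of input fragments. It can be fractional, so it is not always a count of fragments at the summit. ChIP fragments are given unscaled here, so dividing them by the background does not return the fold. The fold enrichment ran from 2.15 to 19.0 at these loci. Its median was 6.34 (95% CI of the median 4.66 to 7.33), beside 5.35 over all summits, a value inside the interval. Without the MNT window the median was 5.27, below that of the list. At least 10-fold enrichment was reached by 10 of the 58 summits, or 17.2% (exact 95% CI 8.59 to 29.4), beside 12.0% of the list. Counted by the highest summit of each interval, it was reached by 9 of 35 intervals, or 25.7% (12.5 to 43.3), beside 15.1% of all intervals. Both intervals of the members' share include the value of the list. A −log10 q of at least 50, a bound chosen after the values were seen, was reached by 15 of the 58 summits, or 25.9% (15.3 to 39.0), beside 13.0% of the list, a value outside the interval. Without the 15 summits of MNT it was reached by 10 of 43, or 23.3% (11.8 to 38.6), an interval that includes the value of the list. Such intervals allow for counting error alone. The reads carry no molecular identifiers, and summits close together are not independent.

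Many summits of the network genes shared an interval with others. A summit was the only one of its interval in 21 of 58 cases, or 36.2% (24.0 to 49.9), beside 56.4% of the list. The median interval width was 438 bp over the 35 intervals and 279 bp over all. MNT and MXI1 held 27 of the 58 summits between them, so these values weigh toward those 2 genes.

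By the highest fold enrichment in the window, the order was MXI1 (19.0), MNT (16.5), MAX (15.3), MGA (12.6), MXD1 (12.0), MYCL (10.6), MXD3 (9.18), MXD4 (9.07), MLX (4.83) and MYC (4.66). In the whole list the MXI1 value ranked at number 621 of 64657, percentile 99.0, and the MYC value at percentile 38.6. A maximum can only grow with the number of summits, which was 15 at MNT, 12 at MXI1 and 3 to 6 at the other loci. By the median fold enrichment of the window the order began with MAX (7.66), MGA (7.63), MXI1 (7.16), MXD3 (7.11) and MNT (6.54). With 1 list, no spread separates neighbours in these orders.

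**Figure D2:**
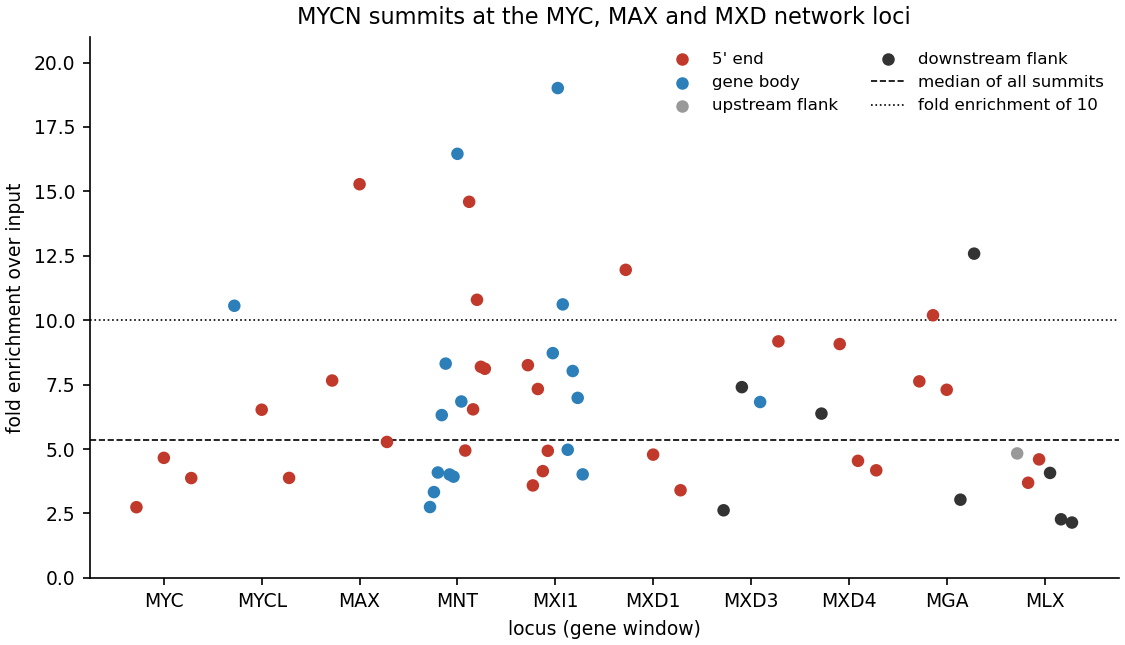
Fold enrichment over input of each MYCN summit (points, in order of position within a locus), coloured by its place in the gene window. The dashed line is the median of all 64657 summits, 5.35, and the dotted line a fold enrichment of 10. All points of MYC and MLX lie under the dashed line, while MXI1, MNT and MAX each have a point above 15.

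MYC and MYCL are the other activators of the family. At MYC, which encodes the widely expressed paralogue of MYCN, 3 summits formed a short row at the 5′ end, each alone in its interval. The summit at chr8:128748426 lay in the 5′ stretch, with 3.87-fold enrichment, a −log10 q of 15.2 and 89 ChIP fragments. The summit at 128747532 lay 0.469 kb outside the stretch, upstream, with 4.66-fold enrichment and a −log10 q of 8.77. The summit at 128746383 lay 1.62 kb outside it, with 2.74 and 4.95. All 3 fold enrichments were below the median of the list. At 128748426, the −log10 q and the 89 fragments (percentile 68.5) were above the list's medians of 14.45 and 63. The other summits were below both. The background at 128748426 was 14 input fragments, beside a median of 7.56 over all summits. The remaining sequence of the window held no summit, and the nearest ones outside were 142 kb before and 42.2 kb after it.

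MYCL, which encodes the third family member, had its strongest summit by fold enrichment in the gene body, close to the limit of the 5′ end. That summit, at chr1:40364869, lay 2.13 kb beyond the 5′ stretch, just past the 2-kb limit. It was enriched 10.6-fold at a −log10 q of 29.6. The summits at the 5′ end, at 40367626 and 40368080, had 6.52 and 3.88. The order turns with the measure: the 5′ summit at 40367626 held 90 ChIP fragments over a background of 8 input fragments, while the gene-body summit held 67 over 3.16.

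MAX, the obligate partner of the MYC proteins, had all 3 summits of its 118-kb window at the 5′ end. An interval of 982 bp, chr14:65569040-65570021, held 2 summits. The one at 65569587 was enriched 15.3-fold at a −log10 q of 112.8, and the one at 65569289 reached 7.66. A separate summit upstream, at 65570292, had 5.27. Among the summits within 2 kb of a 5′ stretch, the MAX summit at 65569587 had the highest fold enrichment. The MXI1 summit of 19.0, which lay 3.0 kb beyond its stretch, is not among them.

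MNT, a MAX partner that is broadly expressed and represses MYC targets, held the most summits, 15 in a window of 38 kb. They fell into 2 wide blocks and a few sites with fold enrichments below the highest of either block. Between the blocks, 2300168 had 6.84 and 2302345, counted to the 5′ end, had 4.94. The first block, chr17:2302811-2305570, spanned 2760 bp over the 5′ end with 5 summits. Their fold enrichments were 14.6 at 2303014, 6.54 at 2303956, 10.8 at 2304484, 8.19 at 2305028 and 8.11 at 2305361. The highest of these lay inside the gene, 0.987 kb beyond the 5′ stretch.

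The other block of MNT, chr17:2295821-2297490, lay in the gene body and spanned 1670 bp, again with 5 summits. Its summit at 2297200 was enriched 16.5-fold at a −log10 q of 134.5, the highest −log10 q of the 58. That summit was covered by 254 ChIP fragments, or 90.7% of the 280 that were the most at any summit of the list. Whether 280 is a ceiling set by duplicate handling, for which nothing is given, was not tested. The other 4 summits of the block ran from 3.93 to 8.31. Toward the gene's 3′ side the signal was weaker, with 4.09 at 2292175 and with 2.75 and 3.33 in the interval 2288136-2288419.

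MXI1, a MXD family repressor with several alternative first exons, carried 12 summits in 3 groups. The first group opened at the 5′ end with 8.25 at chr10:111967310 and continued over 4 weaker summits of 3.59 to 7.33. The next group followed about 3 kb into the gene: 8.72 at 111970590 and 19.0 at 111970999, the highest fold enrichment of all 58 summits. The last group lay some 18 kb in, with 10.6 at 111985873 and 4 summits of 4.01 to 8.03 in the interval 111986399-111987242. Measured from the middle of the 5′ stretch, the leading summits of these groups stood at −0.19, 3.5 and 18.4 kb. RefSeq on GRCh38 lists 3 starts for MXI1, at 0, 2.63 and 18.4 kb from the outermost. The distances come from different builds and are set side by side, not mapped. The rest of the gene held no summit.

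The fold of 19.0 at MXI1 stood over a low background. That summit had 165 ChIP fragments over 4.62 input fragments, whereas the summit at 111985873 had 197 over 11. In the order by most ChIP fragments, MXI1 was at number 6 of the 10 loci.

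MXD1, a repressor induced during differentiation in many tissues, had a single interval of 1185 bp, chr2:70141240-70142424. Its 3 summits declined toward the gene: 12.0 at 70141448, 4.78 at 70141975 and 3.40 at 70142214. The strongest, with 218 ChIP fragments, lay 0.553 kb upstream of the 5′ stretch.

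MXD3, a family member linked to proliferating cells, had the summit with the most ChIP fragments of the 58. At chr5:176739280, in the 5′ stretch, 256 fragments before scaling lay over a background of 17, at 9.18-fold enrichment and a −log10 q of 95.7. With this background, even 280 fragments would have given only 10.0. A summit in the gene body at 176736850 had 6.82. In the downstream flank, 176730368 and 176730770 had 2.62 and 7.40.

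MXD4 was the weakest of the MXD loci by ChIP fragments, with at most 72. Its 5′ end carried 9.07 at chr4:2263268, 4.54 at 2263825 and 4.17 at 2264264. The summit of 9.07 stood over a background of only 4.20 input fragments. A further summit in the downstream flank, at 2243863, had 6.37. MXD4 is one of the members with CACGTG before its start.

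MGA, a very large protein that joins a T-box domain to the E-box binding domain, had 3 summits at its 5′ end. They were 7.63 at chr15:41952641 and 10.2 at 41952926 in a shared interval, and 7.30 at 41954133. The highest fold of the window, 12.6 at 42066783, was in the downstream flank. RefSeq on GRCh38 also lists a start of MGA 39.2 kb further out than the one the window is built on. The nearest summit before the window, at 41914220 with a fold enrichment of 10.2, lay 38.4 kb before the summit at 41952641. It is outside the rule and not counted among the 58.

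MLX stood over the highest local background. Its 5′ end held 3.69 at chr17:40718965 and 4.60 at 40719144, both in 1 interval. The other 4 summits of the window were 4.83 at 40714098 upstream and 4.07, 2.27 and 2.15 downstream. All 6 were below the median of the list in fold enrichment. Their backgrounds were 13.6 to 24 input fragments, beside a median of 7.56 over all summits, and 62 to 149 ChIP fragments covered them. At a background of 24, the list's highest fragment number would give a fold of 7.22, and at the other MLX summits 9.03 to 12.4. All of these exceed the list's median fold of 5.35. The part of the background in the low folds was not tested. By ChIP fragments, the summit at 40714098 was at percentile 89.1 of the list, and by fold enrichment at 41.6.

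The 9 summits in the flanks lay near the starts of other genes, as far as distances across builds can show. In RefSeq on GRCh38, such genes start at nearly the same distance from the member: RAB24 and PRELID1 at 9.0 kb from the start of MXD3, HAUS3 and POLN at 20.0 kb from that of MXD4, MAPKBP1 at 114.1 kb from the later start of MGA, COASY at −5.0 kb from that of MLX and PSMC3IP at 10.6 and 10.7 kb from it. The flank summits stood at 8.7 and 9.1 kb for MXD3, 19.6 kb for MXD4, 113.9 and 114.3 kb for MGA, and −5.4, 10.2, 10.4 and 11.0 kb for MLX. Each of the 9 was within 1 kb of such a start by these distances, again across builds. For MGA and MLX, the highest fold of the window came from such a summit. With summits at the 5′ end only, their highest values were 10.2 and 4.60.

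The depth behind these values was solved from the fold and p-value that the list gives at a summit. A median of 88 ChIP fragments (range 27 to 256) covered the 58 summits, beside 63 over the list. The median local background was 8.96 input fragments (range 2.80 to 24), beside 7.56. The local background was thus somewhat higher at these summits too. Fold and fragment number ordered the loci differently. The background divides the fold. The highest fold and the most fragments of a locus can also belong to different summits, as at MXI1 and MGA. The part of background and fragment number in the differences between loci was not tested. By most ChIP fragments the order began with MXD3 (256), MNT (254), MAX (219), MXD1 (218) and MGA (205). It ended with MYCL (90), MYC (89) and MXD4 (72).

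**Figure D3:**
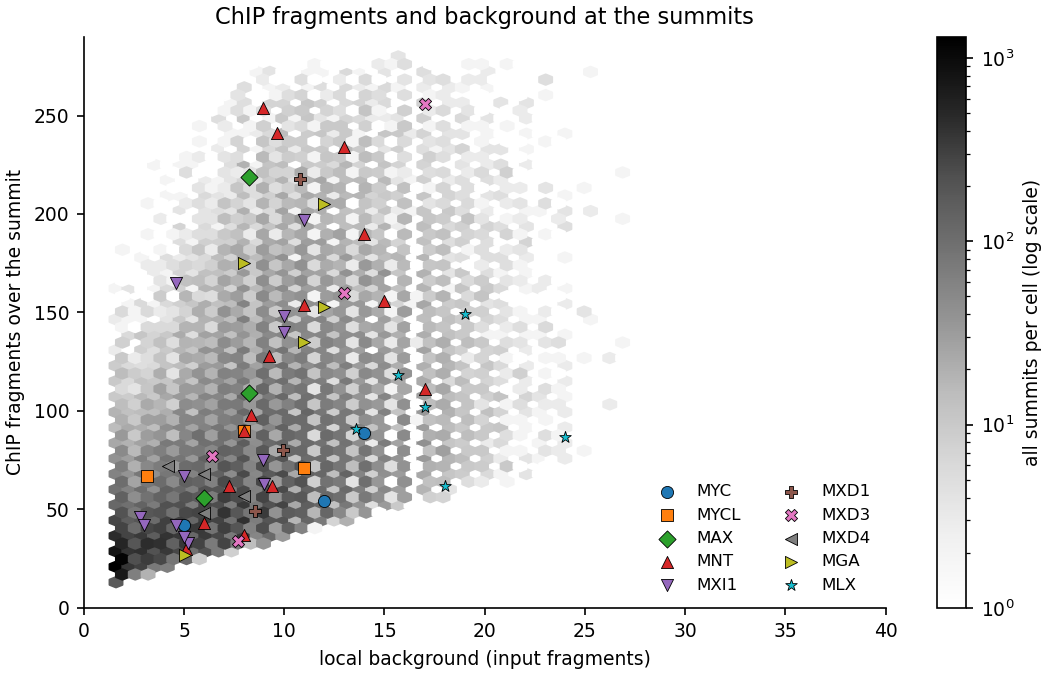
ChIP fragments over each summit against its local background in input fragments, both recovered from the list. Grey cells count all summits on a log scale (18 with a background over 40 are not drawn) and coloured symbols are the 58 summits of the network loci. The MXD3 summit with 256 fragments is the highest of the coloured symbols, at a background of 17, and the MLX symbols lie at 13.6 to 24.

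With 10 kb added on each side, the windows held 65 summits in place of 58, so some summits lay just outside them. The nearest lay 1.9 kb before the MYCL window with a fold enrichment of 11.3, 2.17 kb before the MLX window with 3.96, 7.34 kb after the MXI1 window with 2.82 and 8.15 kb before the MAX window with 4.13. For the other windows the nearest summit was at least 10.9 kb away.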

How the data were processed

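MYCN ChIP-seq peaks of Kelly cells were used as deposited, 1 narrowPeak list per state. Per the submitters' processing notes, MACS2 2.1.1, STAR 2.5.1b, deepTools 2.2.4, SAMtools 1.3.1 and Picard were used on hg19. On settings, duplicate handling and how both ChIP samples were combined, nothing is given in the sources used here. The authors' fold enrichment is a ratio of scaled ChIP pileup to local background, with 1 added to each. The deposited −log10 p-values and −log10 q-values belong to the same summit. The deposited integer score was not used.

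Summit positions, counted from 1, were assigned to the 10 windows by position alone. ChIP fragments and background were solved from fold and p under the relations of MACS2. With a ChIP scale of 0.641, all 64657 summits were matched within 0.0005 in −log10 p. The procedure was first tested on simulated data. All 10 members are named, with the highest summit of each window and those at the 5′ end. The members and lists were chosen with earlier results of these data known. Strands and promoters are from RefSeq, except the strand of MYC, which is textbook knowledge. MYCN and other genes of the network were not analysed here, since no hg19 annotation was used. Shares carry exact (Clopper-Pearson) 95% intervals, and the median carries an exact order-statistic interval. Python 3.11.15, numpy 2.4.6, pandas 2.3.3, scipy 1.17.1 and matplotlib 3.10.9 were used.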

Additional observations from a re-analysis of the deposited data

How the results depend on the processing

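No paired analysis was possible because the ChIP samples of each state come in a single list. Leaving out a replicate could not be done either. Of the 58 summits, 31 had at least 5-fold enrichment, and counting each interval once gave 35. The count was 39 with the genes alone, 65 with 10 kb added on each side and 44 with a −log10 q of at least 10. The median fold enrichment ran from 5.27 (without MNT), below the list's 5.35, to 7.31. The share of summits with at least 10-fold enrichment ran from 16.3% (without MNT) to 20.5% (genes alone). Counted by the highest summit of each interval it was 25.7%, beside 15.1% of all intervals. These settings reuse mostly the same summits, so they are not independent checks. All 10 loci had a summit at the 5′ end within 0, 2 or 5 kb of the stretch and with a −log10 q of at least 10. With a fold enrichment of at least 5 there were 8, without MYC and MLX. MXI1, MNT and MAX were also the first 3 by −log10 q. By ChIP fragments and with summits at the 5′ end only, MNT and MAX stayed among the first 3 and MXI1 did not, and by the median fold enrichment MAX and MXI1 stayed and MNT did not. CANNTG in place of CACGTG raised the members with a match from 3 to 8. The orders by 5′ summits and by median and the values without MNT were chosen after seeing the data. Values without replicates limit every order given here.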
